A study of Mus musculus with 6 samples.

Results

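Serpins are a family of secreted and intracellular proteins that are named for their inhibition of serine proteases. Their genes were followed here in the fasted mouse liver with and without Creb3l3. The members were all probes whose symbol in the array tables starts with Serpin, a clade letter from a to i and a number, 80 probes of 45281 on the array. They carried 59 symbols, which stood for 58 genes after the older name Serpinb6 was read as Serpinb6a. Liver RNA came from 6 male C57BL/6 mice on normal chow, all fasted for 24 h, of which 3 were wild type and 3 were littermates labelled Creb3l3 KO. Creb3l3 encodes CREBH, a membrane-bound transcription factor of hepatocytes. Each mouse gave 1 Illumina WG-6 bead array, and the question of the design is how hepatic transcripts differ without the factor. The sources used here do not give the age of the mice or the way the gene was disrupted.

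A serpin offers an exposed reactive centre loop as bait, and a protease that cuts the loop is trapped in a covalent complex as the serpin refolds. Hepatocytes secrete most of the serpins of blood plasma, where these restrain clotting, fibrinolysis, complement and the elastase of neutrophils, and a few members carry hormones or assist protein folding instead. Members of clade B mostly stay inside cells, many of them leukocytes and epithelial cells. In the mouse, the antitrypsin genes (Serpina1) and the antichymotrypsin genes (Serpina3) have multiplied into clusters of paralogs, and a probe may not separate the transcripts of close paralogs.

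The antitrypsin paralogs are so alike that the likeness extends to the DNA before the gene, which is shown here because their probes are read side by side further on. The stretches are from RefSeq (GRCm38.p6), on the minus strand of chromosome 12, 96 bases each, written 5′ to 3′ and aligned on the motif GTTAAT, part of the recognition sequence of the hepatocyte factor HNF1, in capitals.
Serpina1a, chr12:103863625-103863720: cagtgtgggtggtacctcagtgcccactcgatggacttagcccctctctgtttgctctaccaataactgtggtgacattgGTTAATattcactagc
Serpina1b, chr12:103738200-103738295: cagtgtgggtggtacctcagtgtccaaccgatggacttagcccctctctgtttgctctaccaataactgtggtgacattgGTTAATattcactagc
Serpina1c, chr12:103904962-103905057: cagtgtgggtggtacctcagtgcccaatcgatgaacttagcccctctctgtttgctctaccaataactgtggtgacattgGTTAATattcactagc
Serpina1d, chr12:103773634-103773729: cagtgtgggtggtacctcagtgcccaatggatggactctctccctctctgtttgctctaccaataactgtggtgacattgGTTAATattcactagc
Serpina1e, chr12:103956960-103957055: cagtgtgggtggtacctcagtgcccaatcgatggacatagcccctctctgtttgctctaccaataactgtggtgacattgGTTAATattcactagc
Between any pair of them, 2 to 7 of the 96 bases differed. The motif began 16 to 27 bases before the annotated start in Serpina1a to Serpina1d and 78 bases before it in Serpina1e. Windows of the 250 bases before a start were found for 47 of the 58 genes, 19 of them among the 26 genes that could be tested. GTTAAT, searched on both strands, lay in the windows of 11 of these 47 genes and in 6.43% of all 32851 promoter windows of the same length. The 11 include Serpina1a to Serpina1e, whose stretches are near copies and not separate cases. Members are counted here by gene and the background by window, so the shares are not directly comparable. The cyclic AMP response element TGACGTCA, the type of site that CREB-family factors bind, lay in none of the 47 and in 1.55% of all windows. Its core TGACG, which the full element contains, lay in the windows of 7 genes and in 17.8% of all. Such matches describe letters in a window and do not show binding.

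The arrays differed in brightness, and that of knockout replicate 3 stood apart. It had 4302 probes with a detection p under 0.05, against 11846 to 16224 on the others, and its normalized signals correlated with theirs at r of 0.676 to 0.697, where the others correlated at 0.973 to 0.993. Knockout replicate 1 was the dimmest of the other 5 arrays. It had 11846 detected probes against 15504 to 16224, and a mean signal of 149 against 219 to 252. Values below are normalized log2 signals from 5 arrays, 3 wild type and 2 knockout, and the comparison over all 6 is given beside the main results. Creb3l3 itself read 9.73, 9.74 and 9.70 in wild-type replicates 1, 2 and 3 and 7.45 and 7.35 in knockout replicates 1 and 2. The knockout mean fell by 2.32 ± 0.15 (SE, log2; limma adjusted p = 0.00271). Across 6 arrays the difference was -2.72 ± 0.39 (adjusted p = 0.574), and under median scaling it was -2.97 (adjusted p = 0.175), so the call was lost in both. The numbers 2 and 3 of the wild-type mice are uncertain, because the authors' series table holds these columns exchanged.

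Of the 58 serpin genes, 26 had a probe that was detected on at least 3 of the 5 arrays and could be tested. For another 26 genes no probe was detected on any of the 5 arrays, and the remaining 6 were detected on 1 or 2 of them. By probe, 35 of 80 were tested, or 43.8%, where 31.7% of all probes on the array were. Detection followed the clades. In clade A, the large clade of plasma serpins, 16 of 23 genes were tested, and in clade B, the mostly intracellular members, 3 of 25 were. The single genes of clades C, D, G and H and both genes of clade F were tested. In clade E only Serpine2 was, and neither gene of clade I, the neuronal and pancreatic serpins Serpini1 and Serpini2, was detected on any of the 5 arrays.

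**Figure D1:**
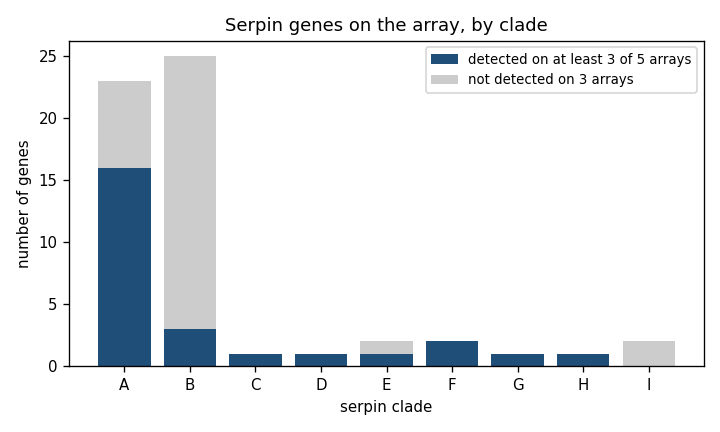
Number of serpin genes on the array (vertical axis) by clade (horizontal axis), split into those with a probe detected on at least 3 of the 5 arrays and the others. Clade A had 16 of 23 genes above this limit and clade B 3 of 25.

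No serpin passed the test for a difference between knockout and wild type. With limma, 0 of 35 serpin probes had an adjusted p under 0.05, where 0.342% of all 14345 tested probes did, 0.0627% higher and 0.279% lower in the knockout. The smallest adjusted p of a serpin was 0.133. At an unadjusted p under 0.05 there were 3 serpin probes, 8.57% of the 35, against 12.1% of all tested probes. Over the 26 genes, each read at its brightest probe, the median log2 change was 0.06, with 14 above 0 and 12 below. That split was 19 and 7 under cyclic loess, 10 and 16 with all 6 arrays, and 1 and 25 under median scaling, which moved the median of all probes to -0.42. Over all 10055 tested genes the median was -0.01. The change was smaller than 0.25 in either direction for 19 of the 26 serpins, or 73.1%, and for 62.0% of all genes. The knockout values lay above all wild-type values for 5 serpin probes (14.3%) and below them for 6 (17.1%), where the shares over all tested probes were 12.9% and 16.4%. The family thus contained such probes about as often as the array as a whole. With all 6 arrays 0 of 36 serpin probes and 0 of 14494 probes passed, and 1 serpin probe had an unadjusted p under 0.05 (3.85% of all probes did).

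**Figure D2:**
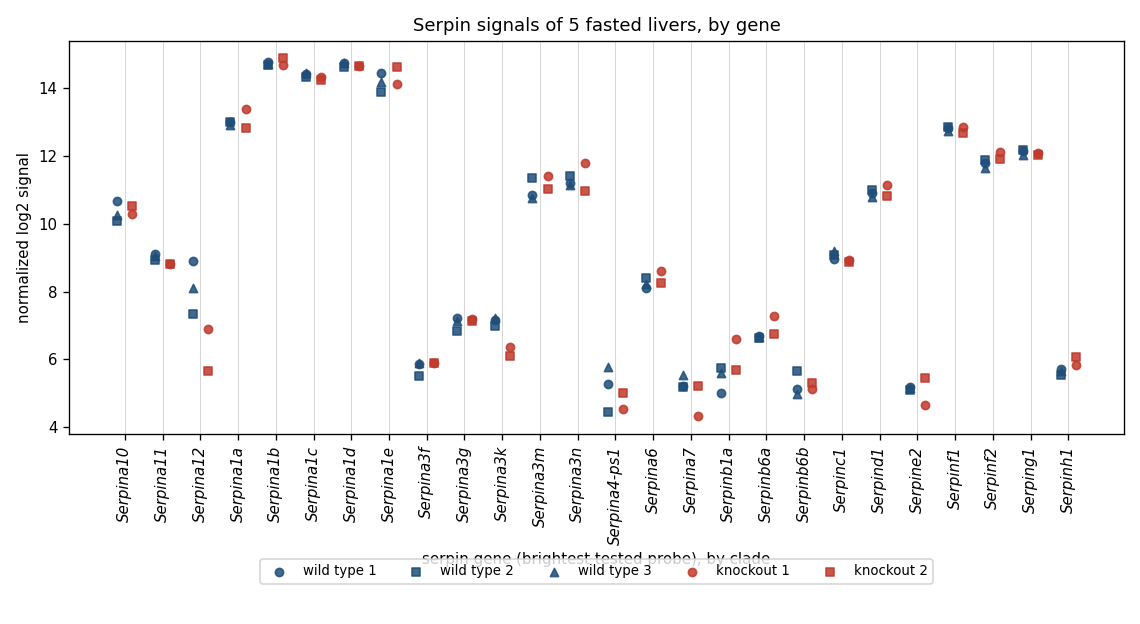
Normalized log2 signal (vertical axis) of the 26 tested serpin genes, each at its brightest probe (horizontal axis), with a point for each of 5 mice. The 2 knockout points lie below the 3 wild-type points for Serpina12, Serpina3k, Serpina11 and Serpinc1, and above them for Serpinb6a, Serpinf2 and Serpinh1. Signals of different probes are not comparable as amounts.

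**Figure D3:**
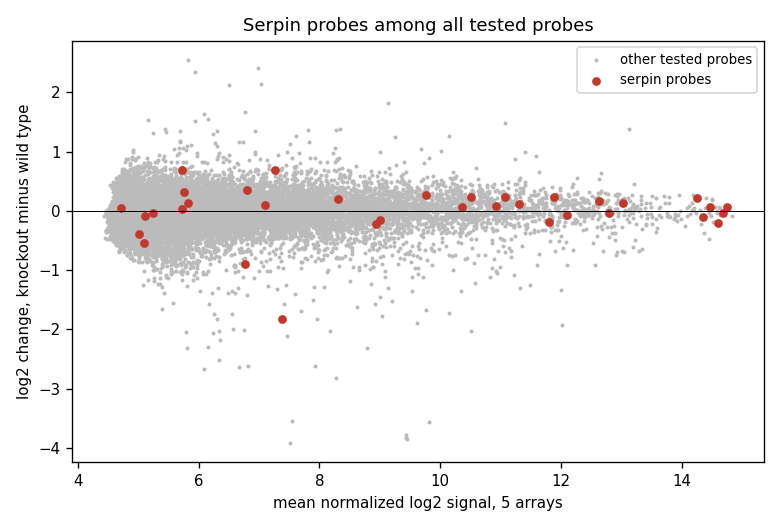
Log2 change, knockout minus wild type (vertical axis), against the mean normalized log2 signal of 5 arrays (horizontal axis) for all 14345 tested probes, with the 35 serpin probes in red. Serpin probes run from -1.83 to 0.69.

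Serpina12, or vaspin, a secreted serpin known from visceral fat, had the most negative change of the family. The wild-type arrays gave deposited signals of 714, 237 and 352 (replicates 1, 2 and 3). The knockout arrays gave 130, 136 and 88.9, and on the last, replicate 3, the probe was not detected. After normalization it read 8.90, 7.34 and 8.10 in wild type and 6.91 and 5.66 in the knockout, so the groups did not overlap. The wild-type mice differed among themselves by more than 1 log2 unit. The log2 change was -1.83 ± 0.48 (SE), a 3.55-fold lower mean, with a 95% interval of -2.94 to -0.72 before adjustment and a limma adjusted p of 0.241, so it did not pass. Across 6 arrays it was -1.62 ± 0.50 (adjusted p = 0.653). A second probe of the gene was detected on 2 of the 5 arrays and was not tested. In whole tissue, fewer cells of a type and less RNA per cell cannot be told apart.

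The 250 bases before the Serpina12 start are shown because the gene stood lowest of the family (RefSeq, GRCm38.p6, minus strand, 5′ to 3′). Capitals mark CCACG, here read on the opposite strand as CGTGG, which begins 41 bases before the start. CCACG is only a part of the endoplasmic reticulum stress element, and the rest of that element was not searched for.
Serpina12, chr12:104044444-104044693: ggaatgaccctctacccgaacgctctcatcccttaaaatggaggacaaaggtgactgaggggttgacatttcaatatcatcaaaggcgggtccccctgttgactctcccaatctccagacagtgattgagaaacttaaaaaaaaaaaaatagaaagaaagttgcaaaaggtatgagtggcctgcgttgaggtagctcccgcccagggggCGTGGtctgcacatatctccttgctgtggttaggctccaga
CCACG lay in the windows of 6 of the 47 genes, Serpina12, Serpina3g, Serpinb6a, Serpinb6c, Serpinf2 and Serpinh1, and in 28.3% of all windows. Neither TGACG nor GTTAAT was found in this stretch.

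Among the antichymotrypsin paralogs, 5 of the 10 genes on the array were tested, and 0 passed. The 10 include Serpina3j, which the array lists under another symbol and which was detected on none of the 5 arrays. Serpina3k, or contrapsin, had the smallest p of the family. The deposited signals of the wild-type mice were 260, 201 and 223, and those of the knockout mice, replicate 3 last, were 118, 159 and 93.7. Normalized, it read 7.17, 6.98 and 7.21 in wild type and 6.38 and 6.09 in the knockout, with no overlap. Its log2 change of -0.89 ± 0.17 (SE) had a 95% interval of -1.28 to -0.49 and a limma adjusted p of 0.133. With knockout replicate 3 included it was 0.06 ± 0.77 (adjusted p = 0.965), so the direction turned with that array. A trended and robust variance gave an adjusted p of 0.0458 for the same change.

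The other paralogs of this cluster stood near 0. Serpina3n, an inhibitor that belongs to the acute phase response, read 11.22, 11.41 and 11.16 in wild type and 11.81 and 10.96 in the knockout. The normalized knockout values thus lay on either side of the wild type. The log2 change of Serpina3n was 0.12 ± 0.25 (adjusted p = 0.867). Serpina3m, its neighbour on chromosome 12, read 10.85, 11.34 and 10.77 in wild type and 11.42 and 11.02 in the knockout (log2 change 0.23 ± 0.23). Serpina3f and Serpina3g, the latter an intracellular inhibitor of cathepsins, had log2 changes of 0.13 and 0.10. With all 6 arrays that of Serpina3g turned to -0.80 ± 0.75. Serpina3a, Serpina3b, Serpina3h and Serpina3c were not detected on 3 arrays, and the first 3 of them were detected on none of the 5. Of 21 other acute phase genes, 17 were tested and 0 passed, with 12 above 0 and a median log2 change of 0.18. At its brightest probe the acute phase protein Saa1 stood at 1.82 ± 0.43 (adjusted p = 0.202). Over its 2 tested probes the mean change was 1.10. Lcn2 stood at 2.14 ± 0.49 (adjusted p = 0.176). Neither gene passed in this fit. Without knockout replicate 1 they stood at 1.02 and 1.18, and across 6 arrays at 1.45 and 0.84. Without knockout replicate 2, which leaves 1 knockout array, they stood at 2.65 and 3.13. With a replicate block both passed (limma adjusted p = 0.00607 and 0.0159). With that block and the wild-type numbers 2 and 3 exchanged, neither did (limma adjusted p = 0.078 and 0.0925). On knockout replicate 2 Serpina3n lay below its wild-type values after normalization. Its deposited signal there was 2517, inside the wild-type range of 2440 to 3171, and on knockout replicate 1 it was 1474, below that range. The brightest Saa1 probe, normalized, read 8.79, 8.04 and 8.39 in wild type and 11.03 and 9.42 in the knockout. It lay above its own wild-type values on both knockout arrays.

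**Figure D4:**
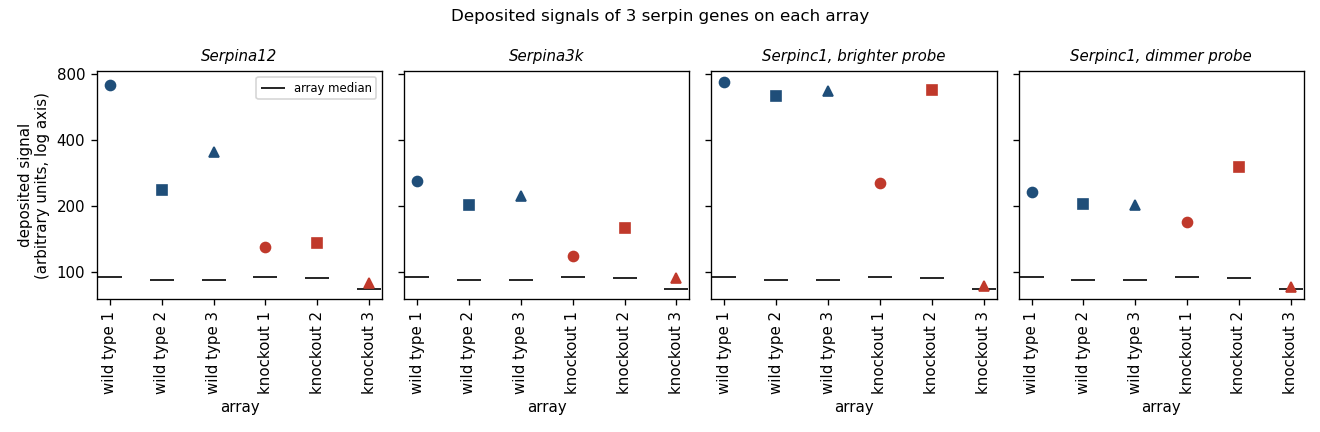
Deposited signal in arbitrary units (vertical log axis) on each of 6 arrays (horizontal axis) for Serpina12, Serpina3k and both probes of Serpinc1, with black dashes at the median signal of each array. Signals on knockout replicate 3 lie close to the array median for all 4 probes, and the Serpinc1 probes rank the knockout arrays differently against wild type.

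The antitrypsin paralogs inhibit the elastase of neutrophils and related proteases, and 5 of the 6 genes were tested with 0 passing. Their probes were among the brightest features. For Serpina1b the wild-type arrays gave 30041, 26539 and 28127 and the knockout arrays 24364 and 28267 before normalization, the last being the highest signal of any probe on that array. Whether the arrays saturate at this end of the scale, which would understate differences, was not tested. After normalization Serpina1b read 14.77, 14.69 and 14.71 against 14.69 and 14.88, with a log2 change of 0.06 ± 0.16 (SE) and a 95% interval of -0.30 to 0.42. Its other probes stood at 0.07 and -0.20, the latter without overlap of the groups and with an adjusted p of 0.618. Serpina1d read 14.74, 14.64 and 14.74 in wild type and 14.67 in both knockout mice, a log2 change of -0.04 ± 0.15.

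Serpina1c, at 14.42, 14.32 and 14.45 in wild type and 14.32 and 14.26 in the knockout, stood at -0.10 ± 0.15 on the log2 scale. Serpina1e varied more between mice, with 14.45, 13.88 and 14.20 in wild type and 14.14 and 14.64 in the knockout, and its log2 change was 0.22 ± 0.23. Of its knockout values, that of replicate 1 lay inside the wild-type range and that of replicate 2 above it. Serpina1a read 13.02, 13.00 and 12.92 in wild type, and 13.40 and 12.83 in the knockout, so that its knockout mice lay above and below the wild type. The change of Serpina1a was 0.14 ± 0.20, and that of its second probe 0.17. Over the 5 genes the adjusted p ran no lower than 0.723. The sixth paralog, Serpina1f, was detected on 1 of the 5 arrays. Because the transcripts are so similar, each of these values may be a mixture of paralogs.

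Inhibitors of clotting and fibrinolysis showed no member that passed, with 5 of 8 genes tested and a median log2 change of 0.06. Antithrombin (Serpinc1), the main inhibitor of thrombin, gave a different picture at its probes. The brighter read 8.95, 9.09 and 9.19 in wild type and 8.94 and 8.89 in the knockout, a log2 change of -0.16 ± 0.16 (limma adjusted p = 0.703). The dimmer read 6.94, 7.02 and 7.0 against 7.88 and 7.47, a change of 0.69 ± 0.18 (adjusted p = 0.23). Neither probe had overlapping groups, and the directions were opposite. On knockout replicate 1 the deposited signal of the dimmer probe was 168, below the 231, 205 and 203 of wild type, and on knockout replicate 2 it was 302. With all 6 arrays the changes were -1.40 ± 1.02 and -0.29 ± 0.80. The sources used here do not say which part of the transcript each probe reads.

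Antiplasmin (Serpinf2), which blocks the dissolution of clots by plasmin, was read by 3 probes at similar changes. The brightest gave 11.81, 11.88 and 11.65 in wild type and 12.12 and 11.91 in the knockout, a log2 change of 0.23 ± 0.17 with a 95% interval of -0.15 to 0.62. The others stood at 0.27 and 0.23, and 2 of the 3 had both knockout mice above the wild type after normalization. The deposited signal of the brightest on knockout replicate 1 was 1849, below the 4750, 3945 and 3347 of wild type. On replicate 2 it was 4904. Heparin cofactor II (Serpind1), a thrombin inhibitor, read 10.91, 11 and 10.78 against 11.16 and 10.82, a change of 0.09 ± 0.18. Serpina10, which inhibits factor X together with protein Z, read 10.67, 10.10 and 10.27 in wild type and 10.30 and 10.52 in the knockout. Its log2 change was 0.06 ± 0.21, within the spread of the wild-type mice. Serpinb2 and protein C inhibitor (Serpina5) were detected on none of the 5 arrays. Serpine2, or protease nexin, was detected on 1 of the 2 knockout arrays and stood at -0.08.

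The C1 inhibitor (Serping1) restrains complement and the contact system. It read 12.16, 12.19 and 12.04 in wild type and 12.10 and 12.02 in the knockout, a log2 change of -0.07 ± 0.16 with a 95% interval of -0.43 to 0.29. Its other probe stood at -0.18 with both knockout mice below the wild type (adjusted p = 0.651). Among serpins that inhibit no protease, Serpinf1, the pigment epithelium-derived factor, read 12.84, 12.85 and 12.75 in wild type and 12.86 and 12.69 in the knockout. Its change of -0.04 ± 0.16 had an interval of -0.40 to 0.32, and a second probe near background stood at 0.04. These intervals leave room for modest changes in either direction.

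The hormone carriers differed in sign. Corticosteroid-binding globulin (Serpina6) read 8.10, 8.39 and 8.22 in wild type and 8.62 and 8.25 in the knockout, a log2 change of 0.20 ± 0.18 (adjusted p = 0.677). With knockout replicate 3, where it was not detected, the change was -1.09 ± 1.06. Thyroxine-binding globulin (Serpina7) lay near background, with 5.21, 5.2 and 5.55 in wild type and 4.32 and 5.23 in the knockout. It was detected on 1 of the 2 knockout arrays, and its change of -0.54 ± 0.27 (adjusted p = 0.468) came from knockout replicate 1. Serpina11 read 9.12, 8.93 and 9.04 in wild type and 8.81 in both knockout mice, below the wild type, with a change of -0.22 ± 0.16 (adjusted p = 0.58). A dimmer Serpina11 probe stood at 0.03. The transcribed pseudogene Serpina4-ps1 lay near background at 5.29, 4.45 and 5.77 against 4.55 and 5.02, a change of -0.39 ± 0.36.

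Serpinh1, the collagen chaperone HSP47 of the endoplasmic reticulum, read 5.71, 5.53 and 5.66 in wild type and 5.83 and 6.07 in the knockout. These normalized groups did not overlap, and the log2 change was 0.32 ± 0.17 (adjusted p = 0.476). On knockout replicate 1 the deposited signal was 109, below the 138, 119 and 124 of wild type, and on replicate 2 it was 158. A dimmer Serpinh1 probe near background was detected on 2 wild-type arrays and on no knockout array, and was not tested. Its mean was 4.59 in wild type and 4.35 in the knockout, the opposite direction. Of 10 markers of stellate cells and fibroblasts, the collagen-producing cells of liver, 6 were tested and 0 passed. Their mean log2 signal was 7.19 to 7.48 in wild type and 7.37 and 7.32 in the knockout. That mean joins opposite changes, 2 below 0 (Reln -0.48, Lum -0.46) and 4 above, among them Acta2 (0.64) and Des (0.28). The defining markers Col1a2 and Lrat were detected on none of the 5 arrays, and the part of these cells in the Serpinh1 value was not tested.

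In clade B only Serpinb1a, Serpinb6a and Serpinb6b were tested. Serpinb1a, an inhibitor of neutrophil elastase, read 5.0, 5.75 and 5.61 in wild type and 6.61 and 5.68 in the knockout, a log2 change of 0.69 ± 0.32 (limma adjusted p = 0.44). After normalization the difference came from knockout replicate 1, since replicate 2 lay inside the wild-type range. The deposited signals of Serpinb1a placed these arrays the other way round. Knockout replicate 1, at 122.3, fell inside the wild-type range of 110.8 to 127.4. Knockout replicate 2, at 136.2, exceeded that range. Which knockout array carried the difference thus depended on normalization. Serpinb6a, which inhibits cathepsin G, read 6.69, 6.63 and 6.67 against 7.28 and 6.76, a change of 0.36 ± 0.19 (adjusted p = 0.49). After normalization both knockout mice lay above the wild type. The deposited signal of Serpinb6a on knockout replicate 1 was 141, below the 204, 174 and 176 of wild type, and on replicate 2 it was 211. With knockout replicate 3 its change was -0.45 ± 0.68. Serpinb6b stood at -0.03. A further probe listed as Serpinb6 was detected on none of the 5 arrays. A probe of Serpinb3b was detected on both knockout arrays and on no wild-type array, with deposited signals of 90.1, 89.7 and 95.9 in wild type against 106 and 104, close to background, and was too rarely detected for the test. It was also detected on knockout replicate 3, at 90.3, and so entered the fit of 6 arrays through the knockout arrays alone. Its change there, 1.47 ± 0.68 (limma adjusted p = 0.653), was selected by that filter and is no evidence of a difference. This probe was chosen after its values were seen. The share of all probes on the array with the same detection pattern is not given here. The other Serpinb3b probes were detected on none of the 6 arrays. Over the 5 arrays their mean log2 signals differed in direction, 4.34 (knockout) against 4.25 (wild type) at the first and 4.24 against 4.33 at the other.

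Leukocyte markers were read beside these values. For macrophages 9 of 10 genes were tested and 8 stood above 0, with mean log2 signals of 6.88 to 7.07 in wild type and of 7.19 and 7.37 in knockout replicates 1 and 2. For neutrophils 2 of 8 genes were tested, with means of 5.31 to 5.47 in wild type and of 5.37 and 6.70 in the same knockout mice. Camp, Mpo and Ngp, defining genes of neutrophils, and the macrophage gene Cd5l were detected on none of the 5 arrays. None of these markers passed, and their part in the clade B values was not tested. After normalization Serpinb1a was higher in knockout replicate 1 than in replicate 2, whereas its deposited signals there were 122 and 136. The other 22 clade B genes, among them the squamous cell carcinoma antigens (Serpinb3a to Serpinb3d), maspin (Serpinb5) and the granzyme B inhibitor Serpinb9, had signals of 81.1 to 106 on these arrays, near the array medians of 91.5 to 95.

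**Figure D5:**
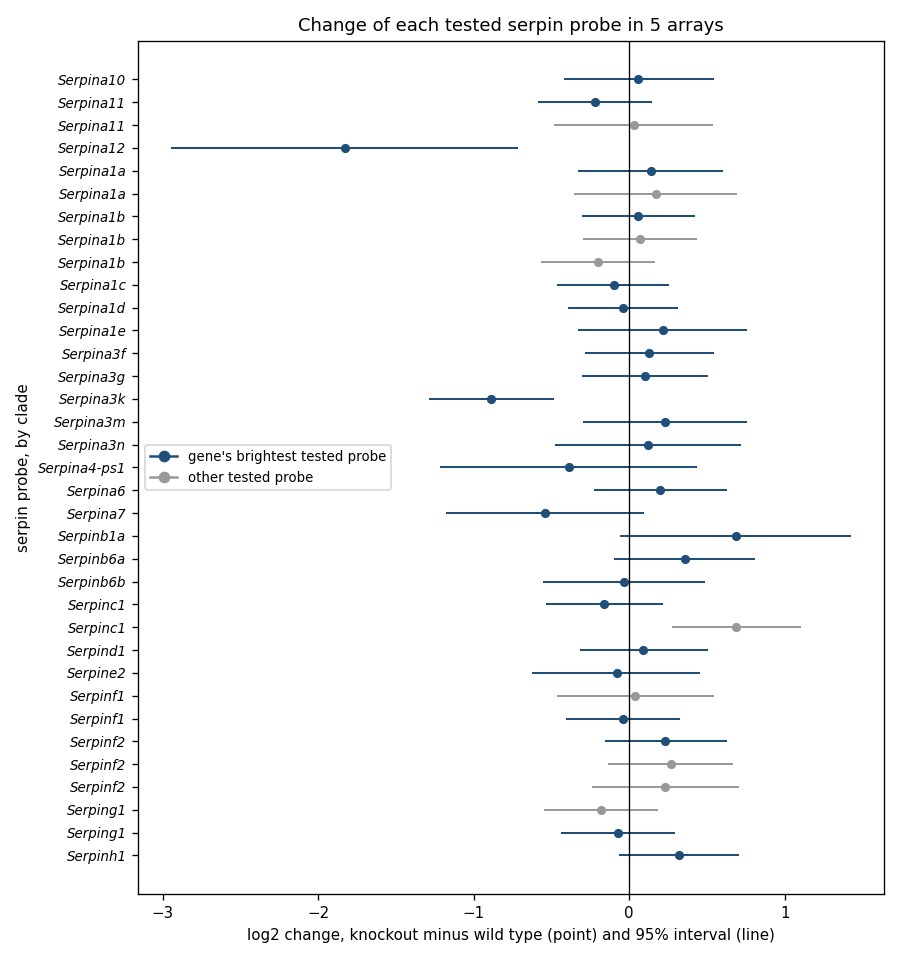
Log2 change, knockout minus wild type (horizontal axis, points), with its 95% interval (lines, unadjusted) for the 35 tested serpin probes (vertical axis, by clade). The intervals of Serpina12, Serpina3k and the dimmer Serpinc1 probe exclude 0, and none of the 35 passed after adjustment over all probes.

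The proteases and other partners of the plasma serpins were read in the same fit. Of 24 target proteases on the array, such as thrombin, plasmin and the C1 proteases in their zymogen forms, 17 were tested and 0 passed, with log2 changes from -0.41 to 0.38 and a median of 0.06. Of 22 plasma protease inhibitors with other symbols, 18 were tested and 0 passed, with a median of 0.10. Among them was Agt, the angiotensin precursor, a serpin by fold, at 0.36 (adjusted p = 0.559). Of 16 receptors, cofactors and secretory factors that handle serpins, 15 were tested and 0 passed, with a median of -0.04. Hepatocyte markers had 6 tested genes, of which 0 passed, with means of 12.16 to 12.20 in wild type and of 12.18 and 12.01 in the knockout.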

How the data were processed

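Per the file headers, the deposited tables hold for each array an average bead signal per probe, an intensity, and a detection p-value. The intensities were treated as raw, since their medians and maxima differ between arrays. Per the submitters' processing notes the authors used BeadStudio 3. The authors' series table of normalized intensity values was an alternative only. The sources used here do not give its method.

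Signals were background-corrected with normexp (offset 16, negative controls inferred from detection p-values), quantile normalized and log2 transformed with limma 3.58.1 in R 4.3.3. Probes were kept where the detection p lay below 0.05 on 3 or more of the 5 arrays, and lmFit and eBayes compared genotypes over all kept probes, two-sided, with Benjamini-Hochberg adjustment and calls at an adjusted p under 0.05. Intervals at 95% come from the same fit and are not adjusted. The number of arrays limits the precision. Steps were tested on simulated data. Figures used matplotlib 3.10.9.

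Knockout replicate 3 was left out for its dimness. The members, the gene lists and this choice were made with earlier results of these data known. Named were the 12 tested serpins of highest mean signal, 10 more with the largest change, and for other lists up to 4 genes of smallest p, with Creb3l3. A gene is read at its brightest tested probe. Other serpin probes are given where they differ in sign or by over 1. Alternatives varied the arrays, background, normalization, filter, variance and pairing. Names were updated with a RefSeq gene table of GRCm38.p6, which gave 79 serpin probes a current symbol and renamed 1. A further 7 probes of serpin genes under other file symbols were outside the rule. The values of some members are not reported here. Replicates are separate mice.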

Additional observations from a re-analysis of the deposited data

Results flagged for a closer look

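Serpinb7, a clade B serpin known as megsin, had a deposited signal of 89.9 on the array of knockout replicate 3, which the comparison left out. It had a detection p of 0.0406 there, while it was detected on no wild-type array, where its signals were 88.4, 83.8 and 81.9, all lower. On knockout replicates 1 and 2 it read 100.5 and 89.2 and was not detected. It was the only 1 of 39 serpin probes undetected in wild type that was both detected on that array and above every wild-type signal. Over the whole array 190 of 25748 probes not detected in wild type did the same, or 0.738%. Groups of 3 mice are too small for a test of single outlying mice.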

How the results depend on the processing

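The count of 0 serpin probes passing held under 13 of 17 other settings. It was 1 with a trended and robust variance (Serpina3k), 1 with a replicate block, and 1 with that block after exchange of the numbers 2 and 3 in wild type, a setting added after the data were seen. In both blocks the probe was Serpina12, at -1.84 (adjusted p = 0.0032) and -2.21 (adjusted p = 0.00544). Leaving out each mouse gave 0 to 5, the 5 without knockout replicate 2: Serpina3k, Serpina7, Serpinb1a, Serpinb6a and the dimmer Serpinc1 probe. In that fit, which has knockout replicate 1 as the lone knockout array and assumes that it varies like the others, 16.7% of all probes passed. Deviations of mice with the same number from their group means correlated at -0.0452, -0.0482 and 0.0368 over 6 arrays. The knockout means there hold the dim array of replicate 3, and the numbers 2 and 3 in wild type are uncertain. These correlations therefore cannot decide whether mice with the same number were paired. The count over all probes, 49, was 0 with all 6 arrays, 83 with cyclic loess, 4 with median scaling, 85 without background correction, 108 with an offset of 50, 1 with no filter, 83 with the authors' table, 32 with array weights and 122 with a trended and robust variance. Without single mice it ran from 9 to 2234. The causes were not tested.

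The median log2 change of the serpins was -0.12 with all 6 arrays, 0.14 with cyclic loess, -0.48 with median scaling and -0.0023 with the exchanged block, and -0.04 to 0.09 without single mice. Median scaling moved the median of all probes to -0.42, so its negative values are to be read against that shift. Directions turned as follows, and the cause was not tested. Under median scaling these were Serpina10 (-0.67), Serpina1a (-0.41), Serpina1b (-0.11), Serpina1e (-0.23), Serpina3f (-0.25), Serpina3g (-0.50), Serpina3m (-0.48), Serpina3n (-0.58), Serpina6 (-0.51), Serpinb6a (-0.25), Serpind1 (-0.64), Serpinf2 (-0.42), Serpinh1 (-0.04) and Agt (-0.38). With all 6 arrays they were Serpina3g (-0.80), Serpina3k (0.06), Serpina6 (-1.09), Serpinb6a (-0.45), the dimmer Serpinc1 probe (-0.29), Serpind1 (-0.08) and Serpinh1 (-0.02). Under cyclic loess Serpina1c (0.20), Serpina1d (0.51), Serpinb6b (0.06), Serpine2 (0.16) and Serpinf1 (0.03) turned. In the exchanged block Serpina10 (-0.06), Serpina3g (-0.01) and Serpinb6b (0.17) did, and with array weights Serpinb6b (0.04). Without single mice the turned ranges were -0.06 to 0.22 for Serpina10, -0.15 to 0.44 for Serpina1a, -0.04 to 0.11 for Serpina1b, -0.04 to 0.39 for Serpina1e, -0.01 to 0.17 for Serpina3g, -0.31 to 0.55 for Serpina3n, -0.17 to 0.16 for Serpinb6b, -0.44 to 0.33 for Serpine2, -0.07 to 0.25 for Serpind1 and -0.12 to 0.04 for Serpinf1.
Serpina12 was below 0 under all 17 settings, from -2.52 to -1.11, with adjusted p from 0.0032 to 0.776. With 2 knockout arrays, of which 1 is dim, small changes of genes near background could not be resolved.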
